A study of Mus musculus with 4 samples.

Results

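Interferon-stimulated genes are the genes that cells switch on when interferon reaches them, and 33 of them were followed here by symbol in 38921 gene intervals counted in cultured mouse pancreatic fibroblasts. The list holds 26 genes of the type I interferon response, 6 GTPase genes best known as interferon gamma targets, and Irf1, which answers both. All 33 had a row and all 33 had enough counts to be tested.

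The libraries compared 2 groups, fibroblasts of wild type mice and fibroblasts of KPC mice, with 2 libraries each that the labels call biological replicates. Both groups came from pancreas, had a strain background given only as mixed, were separated by gravity, and were grown in DMEM with foetal bovine serum. The labels name no interferon or other agent. KPC commonly names a mouse pancreatic cancer model whose conditional alleles are recombined by a Cre that is active in the pancreatic epithelial lineage, and the labels give no more than this abbreviation. They do not say whether the fibroblasts themselves carry recombined alleles, and they give no age, no number of animals and no pooling. The p-values below therefore measure the spread between these libraries, whatever its source. The wild type libraries held 53232634 and 22302141 counts, and the KPC libraries 57926327 and 68312367, here and throughout in the order of the replicate numbers.

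Type I interferons bind the receptor made of Ifnar1 and Ifnar2, and the kinases Jak1 and Tyk2 then act on STAT2. With IRF9 it enters the complex ISGF3, which binds the interferon-stimulated response element (ISRE) of promoters. Interferon gamma uses a different receptor, made of Ifngr1 and Ifngr2, and acts mostly on the gamma-activated site (GAS). Fibroblasts respond to both kinds, keep many of these genes at a low level without added interferon, and raise the set together on infection.

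Beyond fibroblasts, the cultures held RNA of other cell types in unequal amounts, given as CPM, the read count scaled to library size with TMM factors. Fibroblast markers summed to between 15214 and 16965 CPM in all 4 libraries, led by Col1a1 and Acta2. Among them Lum (0.171 to 7.34 CPM) and Fap (2.07 to 8.05 CPM) were low. The 16 macrophage markers with a row, led by Lyz2 and C1qa, summed to 77.3 and 276 CPM in wild type, against 1096 and 2281 in KPC. All 16 were higher in KPC without overlap, none was at 0 in any library, and 15 were lowest in wild type 1. Epithelial markers, led by Krt18 and Krt8, summed to 32.0 and 439 CPM in wild type, against 1199 and 460 in KPC. Of these 12 markers, 5 were higher in KPC without overlap, where 20.6% of all tested rows were. The other 7 overlapped, Krt18 and Krt8 among them. Endothelial markers, led by Emcn and Plvap, summed to 800 CPM in wild type 1 and to between 26.6 and 55.0 elsewhere. Endocrine markers, led by Ins2 and Chgb, summed to 942 CPM in wild type 2 and to no more than 2.41 elsewhere. Mesothelial markers summed to 18.6 and 25.4 CPM in wild type, against 108 and 30.4 in KPC, with Msln higher in both KPC libraries and Upk1b overlapping. Lymphocyte markers summed to at most 6.34 CPM, with Il7r higher in both KPC libraries and Klrb1c overlapping. In bulk RNA, a different number of cells of a type and a different amount of RNA per cell cannot be told apart.

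The 33 genes had no common direction between the groups. By edgeR's quasi-likelihood test with Benjamini-Hochberg adjustment, 0 of the 33 passed an adjusted p of 0.05, as did 0% of all 23046 tested rows. At an unadjusted p under 0.05, 2 members were higher in KPC (Xaf1 and Oasl1), where 4.73% of all rows were, and 1 was lower (Irgm1), where 3.94% of all rows were. DESeq2 called Xaf1 higher and Irgm1 lower among 333 rows called higher (1.44%) and 294 called lower (1.28%), and limma voom called 0 members. In 6 members both KPC libraries lay above both wild type libraries, against 20.6% of all rows, and in 7 both lay below, against 20.5%, so both counts stood close to the background. The log2 fold change, KPC against wild type, was positive in 19 members and negative in 14. Its median was 0.09 over the members and -0.01 over all rows, of which 48.7% were positive.

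**Figure D1:**
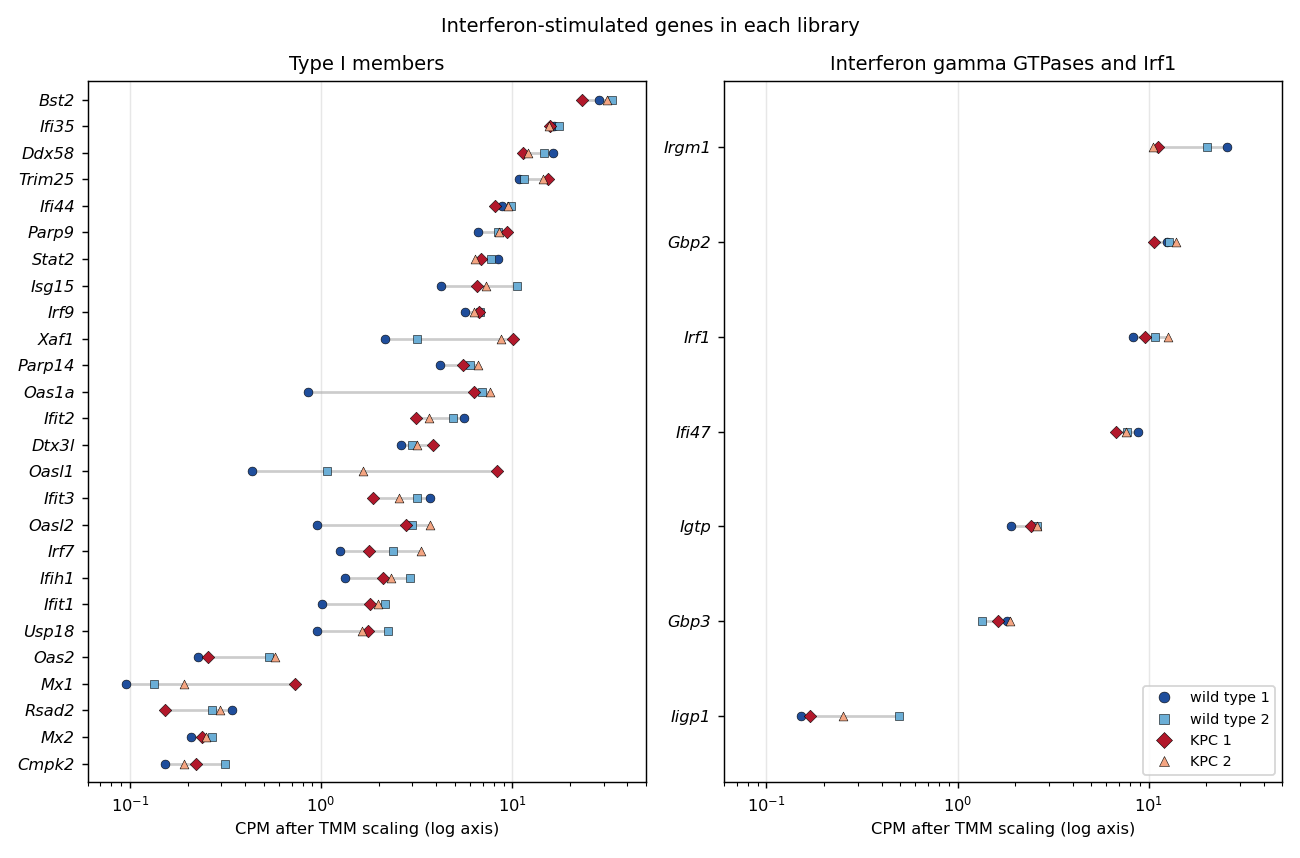
Level of each member in each of the 4 libraries, in CPM after TMM scaling on a log axis, ordered by mean CPM, with the type I members on the left and the interferon gamma GTPases and Irf1 on the right. Grey lines join the lowest and the highest library. Xaf1 and Irgm1 separate the groups in opposite directions, and Oas1a is low in wild type 1 alone (0.856 CPM).

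Many promoters of these genes hold the letters that the interferon factors read. RefSeq promoters (GRCm38.p6, 250 bases before to 50 after the start) were matched for 26 of the 33 members; Iigp1, Mx1, Mx2, Oas2, Parp14, Parp9 and Usp18 were not matched. The ISRE was searched as GAAANNGAAA on both strands, which reads TTTCNNTTTC from the other side, and the GAS as TTCNNNGAA, which reads the same on both. The ISRE letters stood in 13 of the 26 members (50.0%), against 3.99% of 27025 genes with a promoter in the same table. They stood in 9 of 20 type I members and in 4 of 5 GTPases. The GAS letters stood in 6 of 26 members (23.1%), against 9.55% of genes. By class, they stood in 4 of 20 type I members and in 1 of 5 GTPases. A match describes the letters alone and is not a measured site. The windows here show members with an ISRE match that differ in how they behaved across libraries, then Irf1 for its GAS match, then Xaf1, the member of smallest p, with no match of either motif. Each reads 5′ to 3′ on the gene's strand, and capitals mark the ISRE letters, or in Irf1 the GAS letters. GAS matches in the windows of Bst2 and Igtp are left in lower case.
Isg15: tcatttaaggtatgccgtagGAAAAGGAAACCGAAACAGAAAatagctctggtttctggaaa
Ifit1: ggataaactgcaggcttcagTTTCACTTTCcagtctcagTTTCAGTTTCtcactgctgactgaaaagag
Ifit3: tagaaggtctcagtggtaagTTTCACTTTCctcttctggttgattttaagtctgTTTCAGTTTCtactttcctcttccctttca
Oas1a: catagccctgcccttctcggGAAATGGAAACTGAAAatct
Bst2: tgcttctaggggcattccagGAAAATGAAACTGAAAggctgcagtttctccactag
Irgm1: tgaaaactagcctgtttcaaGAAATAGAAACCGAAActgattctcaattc
Gbp2: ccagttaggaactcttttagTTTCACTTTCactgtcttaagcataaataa
Igtp: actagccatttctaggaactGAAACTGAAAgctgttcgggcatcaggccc
Irf1: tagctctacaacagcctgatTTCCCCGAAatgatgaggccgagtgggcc
Xaf1: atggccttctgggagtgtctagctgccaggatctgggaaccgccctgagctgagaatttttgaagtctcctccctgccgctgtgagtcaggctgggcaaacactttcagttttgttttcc
In Isg15 (chr4:156200855-156200916, minus strand) 3 matches overlapped one another, the first beginning 78 bases before the start. Ifit1 (chr19:34640765-34640833, plus strand) and Ifit3 (chr19:34583353-34583436, plus strand) each held 2 separate matches. Matches overlapped in Oas1a (chr5:120907526-120907565, minus strand), Bst2 (chr8:71537567-71537622, minus strand) and Irgm1 (chr11:48871421-48871470, minus strand), each with 2, and in Bst2 the first of these also overlapped a GAS match. Gbp2 (chr3:142620584-142620633, plus strand) and Igtp (chr11:58199502-58199551, plus strand) held 1 ISRE match each, and in Igtp a GAS match began 45 bases before the start. The Irf1 window (chr11:53769904-53769952, plus strand) holds the GAS letters, and the Xaf1 window (chr11:72301509-72301628, plus strand) is the last 120 bases before the start. The 13 members with the ISRE letters had a median log2 fold change of -0.10, and the 13 matched members without them had a median of 0.22, which was not tested.

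Xaf1, which encodes a pro-apoptotic protein that binds the inhibitor XIAP, had the smallest p of the members. Its interval lies at chr11:72301630-72313733 (mm10), in no overlap with another row. Xaf1 stood at 2.17 and 3.17 CPM in wild type, against 10.1 and 8.74 in KPC. Both KPC libraries lay well above both wild type libraries, and the libraries of a group lay close together. The group means were 2.67 ± 0.711 and 9.44 ± 0.993 CPM (SD, n = 2 each), a log2 fold change of 1.83 ± 0.30 (SE), with an adjusted p of 0.283 by edgeR. DESeq2 gave an adjusted p of 7.53e-05. Reads covered 1358 and 1058 bases of the 12104-base interval in the wild type libraries, against 2971 and 2836 in the KPC libraries. These bases come from the same reads as the counts and are not scaled to library size, so they are no separate support. Macrophage, epithelial and mesothelial markers had higher sums in the same libraries; epithelial and mesothelial sums had the order of Xaf1 over the 4 libraries, and macrophage sums had KPC 2 highest. The part of these cells was not tested.

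Irgm1 was the member with the clearest difference in the other direction. It encodes an immunity-related GTPase that acts on autophagy and on the vacuoles of intracellular microbes, and its interval (chr11:48861969-48871683) also overlaps no other row. Irgm1 stood at 25.8 and 20.1 CPM in wild type, against 11.2 and 10.6 in KPC. The KPC libraries were nearly alike and both lay below the lower wild type library. The group means were 22.9 ± 3.99 and 10.9 ± 0.446 CPM (SD, n = 2 each). The log2 fold change was -1.08 ± 0.21 (SE), with an adjusted p of 0.346 by edgeR, and an adjusted p of 0.00448 by DESeq2. Endothelial and endocrine markers were lower in the same libraries, each mostly through 1 wild type library, and their part was not tested.

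The factors that carry the signal had no clear difference. Stat2, a subunit of ISGF3, stood at 8.39 and 7.73 CPM in wild type, against 6.88 and 6.35 in KPC. The groups did not overlap, at a log2 fold change of -0.29 ± 0.22 (SE) and an adjusted p of 0.749. Irf9, the DNA-binding partner of ISGF3, stood at 5.65 and 6.75 CPM in wild type, against 6.68 and 6.34 in KPC, so that both KPC libraries lay between the wild type ones. Irf7, a factor that is itself induced and amplifies type I interferon, stood at 1.26 and 2.37 CPM in wild type, against 1.78 and 3.33 in KPC, with the groups interleaved. The log2 fold change of Irf7 was 0.52 ± 0.49 (SE). Irf1, the early factor of the interferon gamma response, stood at 8.23 and 10.7 CPM in wild type, against 9.52 and 12.6 in KPC. Its log2 fold change of 0.22 ± 0.26 (SE) was smaller than its error, and the groups overlapped.

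The sensors of viral RNA differed in direction. Ddx58, which encodes the sensor RIG-I, stood at 16.2 and 14.7 CPM in wild type, against 11.4 and 12.1 in KPC, a log2 fold change of -0.40 ± 0.19 (SE) with an adjusted p of 0.622. Trim25, a ubiquitin ligase that acts on RIG-I, stood at 10.8 and 11.4 CPM in wild type, against 15.5 and 14.5 in KPC, a log2 fold change of 0.43 ± 0.18 (SE) with an adjusted p of 0.601. Neither gene's groups overlapped, the sensor being lower in KPC and its ligase higher. Ifih1, which encodes the sensor MDA5, stood at 1.33 and 2.91 CPM in wild type, against 2.11 and 2.33 in KPC, with the KPC libraries inside the wild type range.

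Isg15, a ubiquitin-like modifier, and Usp18, the protease that removes it and dampens receptor signalling, differed most within wild type. Isg15 stood at 4.26 and 10.6 CPM in wild type, against 6.56 and 7.25 in KPC. Usp18 stood at 0.951 and 2.24 CPM in wild type, against 1.75 and 1.64 in KPC. In both genes the wild type libraries were the lowest and the highest of the 4, and the KPC libraries lay between them. The log2 fold changes were -0.10 ± 0.47 (SE) for Isg15 and 0.12 ± 0.48 for Usp18.

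The IFIT genes, neighbours on chromosome 19 whose proteins bind foreign RNA, split. Ifit2 stood at 5.57 and 4.87 CPM in wild type, against 3.14 and 3.67 in KPC, a log2 fold change of -0.62 ± 0.25 (SE) with an adjusted p of 0.593. Ifit3 stood at 3.73 and 3.17 CPM in wild type, against 1.87 and 2.56 in KPC, at -0.64 ± 0.30 (SE) and an adjusted p of 0.623. Both were lower in KPC with no overlap. Ifit1 stood at 1.01 and 2.15 CPM in wild type, against 1.80 and 1.99 in KPC, so that wild type 1 was low, the other 3 libraries were alike and the groups overlapped.

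In the OAS family, whose enzymes answer double-stranded RNA by activating an RNase, all 4 members were lowest in wild type 1. Oas1a stood at 0.856 and 6.93 CPM in wild type, against 6.27 and 7.62 in KPC. Wild type 2 thus lay with the KPC libraries, and wild type 1 lay apart at 45 counts, with an exact 95% Poisson interval of 0.624 to 1.14 CPM that covers counting error only. The log2 fold change of 0.86 ± 0.93 (SE) was 0.0035 without wild type 1. It was 3.02 without wild type 2, where Oas1a passed (adjusted p = 0.0255 by edgeR). The row of Oas1g, a near copy whose reads cannot be told apart from those of Oas1a with certainty, had the same pattern, at 0.608 and 5.05 CPM in wild type, against 4.69 and 5.50 in KPC. Oasl2 stood at 0.951 and 3.0 CPM in wild type, against 2.79 and 3.71 in KPC, again with wild type 1 alone low. Oas2 stood at 0.228 and 0.536 CPM in wild type, against 0.255 and 0.575 in KPC, on 12 to 39 counts a library. Its wild type 1 and KPC 1 values lay within each other's exact 95% Poisson intervals, so their rank is not resolved.

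Oasl1, which lies beside Oasl2 on chromosome 5 and encodes an OAS-like protein without enzyme activity that limits Irf7 translation, had the largest fold change of the members. It stood at 0.437 and 1.07 CPM in wild type, against 8.31 and 1.65 in KPC. KPC 1 was far above the other 3 libraries, with 489 counts against 23, 24 and 112. The log2 fold change was 2.78 ± 0.94 (SE), with an adjusted p of 0.541 by edgeR, and it was 1.18 without KPC 1. Mx1, a GTPase that blocks influenza virus, was also highest in KPC 1, at 0.731 CPM (43 counts, exact 95% Poisson interval 0.529 to 0.984 CPM) and 0.192 CPM in KPC 2 (13 counts), against 0.0951 and 0.134 CPM in wild type (5 and 3 counts). Its log2 fold change of 2.07 ± 0.88 (SE) had an adjusted p of 0.601 and was 0.81 without KPC 1. Mx2 lay between 0.209 and 0.268 CPM in all 4 libraries, on 6 to 17 counts.

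The remaining type I members were near level or overlapped. Parp9, its partner Dtx3l, an E3 ligase that ubiquitinates histones with it, and Parp14 had log2 fold changes of 0.26 ± 0.24, 0.32 ± 0.27 and 0.26 ± 0.29 (SE), and each was lowest in wild type 1. Parp14 overlapped between groups, from 4.18 to 6.65 CPM. Dtx3l stood at 2.62 and 3.0 CPM in wild type, against 3.84 and 3.15 in KPC. Parp9 stood at 6.64 and 8.40 CPM in wild type, against 9.41 and 8.52 in KPC. In neither Parp9 nor Dtx3l did the groups overlap. The intervals of Parp9 and Dtx3l share 681 bases, and Parp9 shares 5853 bases with Gm15564, a row that held 63245 counts in wild type 1 and between 3744 and 10374 in the other libraries. Counts of these rows are therefore not fully independent. Ifi35 was nearly level, at 16.5 and 17.5 CPM in wild type, against 15.8 and 15.5 in KPC, with both KPC libraries slightly lower. Ifi44 lay between 8.14 and 9.88 CPM with the groups interleaved. Rsad2, which encodes the antiviral enzyme viperin, and its neighbour Cmpk2, a mitochondrial nucleotide kinase, stayed under 0.35 CPM in all 4 libraries, with 6 to 20 counts.

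Per kilobase of exon, Bst2 was the most abundant member. It encodes tetherin, which holds budding virus at the cell surface, and its mean over the 4 libraries was 32.1 CPM per kilobase, followed by Isg15 at 9.48, Ifi35 at 9.46 and Gbp2 at 4.94. Bst2 stood at 28.3 and 33.3 CPM in wild type, against 23.2 and 31.3 in KPC, with overlap and a log2 fold change of -0.17 ± 0.23 (SE). At the other end Iigp1, Cmpk2, Rsad2, Mx2, Mx1 and Oas2 lay between 0.046 and 0.090 CPM per kilobase. These are exon lengths from GENCODE M21, while the deposited counts are taken to cover introns too, so the scale is approximate.

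Of the interferon gamma GTPases, Irgm1 alone had an unadjusted p under 0.05. Gbp2 encodes a guanylate-binding protein that attacks pathogen vacuoles and stood at 12.5 and 12.7 CPM in wild type, against 10.7 and 13.8 in KPC. Gbp3, of the same family, stood at 1.81 and 1.34 CPM in wild type, against 1.63 and 1.87 in KPC. In both the groups overlapped. Igtp, Ifi47 and Iigp1 encode immunity-related GTPases, as Irgm1 does. Igtp stood at 1.90 and 2.59 CPM in wild type, against 2.41 and 2.61 in KPC. Its groups overlapped, and 7973 bases of its interval are shared with Irgm2. Ifi47 stood at 8.79 and 7.64 CPM in wild type, against 6.69 and 7.63 in KPC, a log2 fold change of -0.20 ± 0.22 (SE) with the groups touching, and its whole interval lies within that of Olfr56. Iigp1 held 8 to 17 counts a library and had a log2 fold change of -0.46 ± 0.70 (SE).

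**Figure D2:**
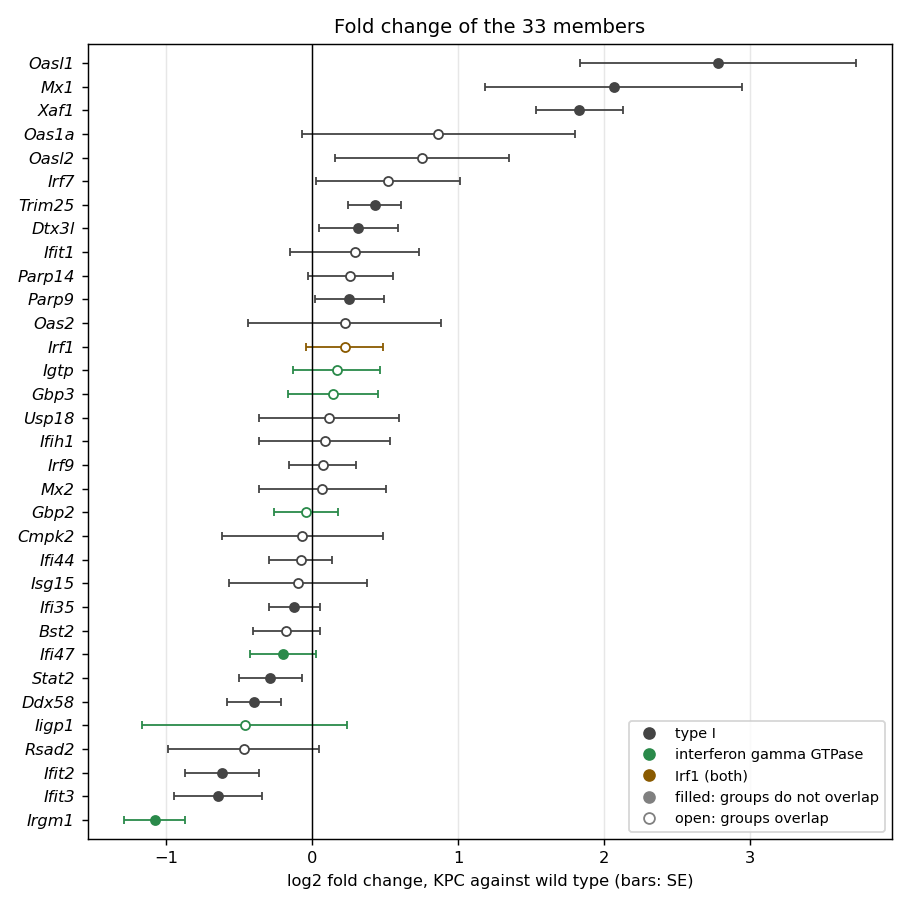
Log2 fold change, KPC against wild type, of the 33 members with its standard error from edgeR, ordered by size; filled points are members whose groups do not overlap. Most members lie within about 1 SE of 0, and Oasl1 (2.78), Mx1 (2.07), Xaf1 (1.83) and Irgm1 (-1.08) lie farthest out.

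Type I members and GTPases were then set side by side. The median log2 fold change was 0.10 over the 26 type I members, with 16 positive and 10 negative, and -0.12 over the 6 GTPases, with 2 positive and 4 negative. Without overlap, 6 type I members were higher in KPC and 5 were lower, against 0 and 2 of the GTPases. Of all rows, 20.6% were higher and 20.5% lower without overlap. The difference of the medians was 0.22. It was -0.086 without wild type 1 and 0.49 without wild type 2, so its direction rested on wild type 1. The GTPase median was 0.019 without KPC 1. An exact permutation test of 2 libraries against 2 cannot go below p = 0.333 and was not used.

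Among the type I members the larger contrast lay between the wild type libraries. Wild type 1 was the lowest of the 4 libraries in 18 of the 26 type I members and in 2 of the 6 GTPases, against 28.9% of all tested rows. Among the 18, Mx1, Mx2, Oas2 and Cmpk2 rest on few counts, so their lowest library is uncertain. Wild type 2 lay above wild type 1 in 21 of the 26 type I members and in 3 of the 6 GTPases, against 48.4% of all rows. With each gene centred on its own mean, the median type I member stood on the log2 scale at -0.35 in wild type 1 and 0.14 in wild type 2, with KPC 1 at 0.01 and KPC 2 at 0.07. The GTPases stood at 0.07, 0.09, -0.20 and 0.11. The median log2 ratio of wild type 2 to wild type 1 was 0.43 over the type I members and -0.08 over the GTPases, against -0.02 over all rows. The type I median fold change was -0.16 without wild type 1 and 0.45 without wild type 2. Over all rows the median was 0.03 without wild type 1 and -0.01 without wild type 2. Wild type 1 was also the lowest library in macrophage and epithelial markers and the highest in endothelial markers, and their part in this contrast was not tested. In 20 of the 33 members the gap between the wild type libraries exceeded the difference between the groups, as in 60.4% of all rows. Of the 26 type I members, 15 had this larger gap, so by this count they stood close to all rows.

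**Figure D3:**
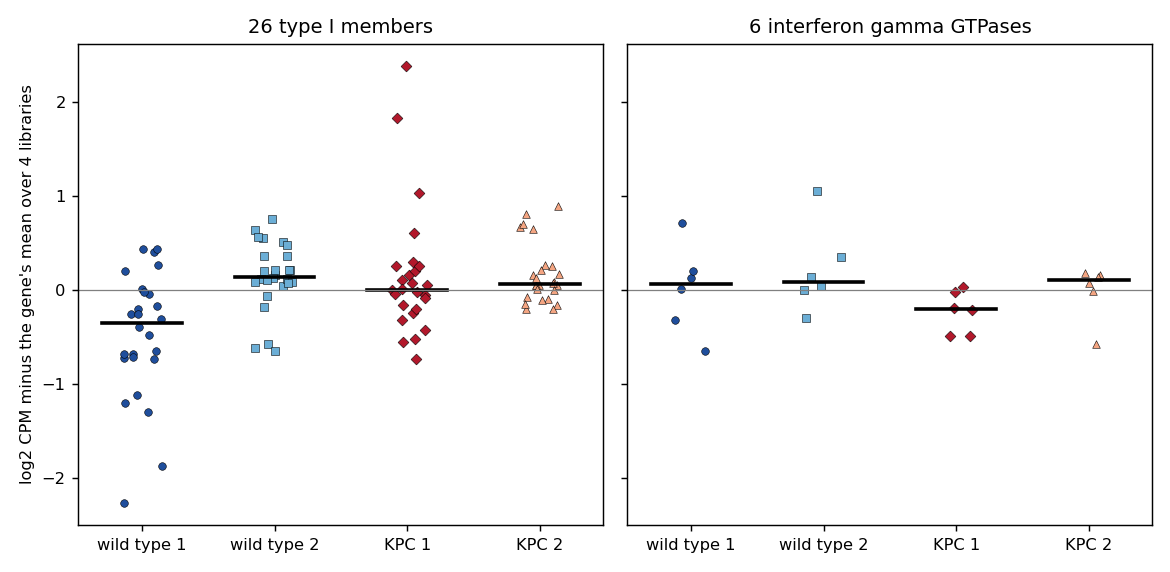
Log2 CPM of each member minus its mean over the 4 libraries, by library, for the 26 type I members and the 6 interferon gamma GTPases; each point is a gene and the black bar is the median. The type I points of wild type 1 sit lowest (median -0.35); of the GTPase medians that of KPC 1 is lowest (-0.20).

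The ligands themselves were mostly not detected. Of 11 interferon genes listed, 9 had 0 counts in all 4 libraries, among them Ifnb1, Ifna1 and Ifng, so that each may have stood at up to 0.0570, 0.134, 0.0510 and 0.0442 CPM (3 counts), in the order wild type 1 and 2, KPC 1 and 2. Ifne had 1 count in each of wild type 1 and KPC 1. Ifnz, an interferon zeta gene, was listed at 3.06 and 4.96 CPM in wild type, against 1.84 and 3.26 in KPC, with the groups overlapping.

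The receptor genes were expressed in all 4 libraries. Ifnar1 stood at 26.7 and 23.2 CPM in wild type, against 26 and 25.3 in KPC. Ifnar2 stood at 18.3 and 27.2 CPM in wild type, against 24.7 and 30.6 in KPC, again with wild type 1 lowest. Both type I receptor chains overlapped between groups, while both interferon gamma chains were lower in KPC without overlap. Ifngr1 stood at 12.9 and 17.0 CPM in wild type, against 11.3 and 12.5 in KPC (adjusted p = 0.720 by edgeR). Ifngr2 stood at 39.1 and 44.7 CPM in wild type, against 34.6 and 36.3 in KPC (adjusted p = 0.728). Of the 10 receptor and kinase genes, 2 were higher and 3 lower without overlap, where 20.6% and 20.5% of all rows were. By edgeR 1 was higher at an unadjusted p under 0.05, where 4.73% of all rows were. It was Il10rb, a receptor chain of the lambda interferons and of IL-10, at 14.3 and 16.8 CPM in wild type, against 21.5 and 22 in KPC. Jak2, the kinase of the gamma receptor, stood at 19.8 and 23.5 CPM in wild type, against 28.3 and 29.2 in KPC.

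Of 9 tested negative regulators of the pathway, 4 were higher in KPC at an unadjusted p under 0.05 by edgeR, where 4.73% of all rows were, and 0 were lower. None passed edgeR's adjusted threshold, and DESeq2 called 2 higher (Socs3 and Ptpn6). Their median log2 fold change was 0.33, against -0.01 over all rows. Socs3, an inhibitor of JAK signalling that answers mostly IL-6-type cytokines, stood at 5.61 and 12.0 CPM in wild type, against 28.0 and 23.3 in KPC, a log2 fold change of 1.55 ± 0.41 (SE) with an adjusted p of 0.462. Ptpn2, a phosphatase that acts on JAKs, stood at 12.1 and 13.3 CPM in wild type, against 23.4 and 18.8 in KPC. Ptpn6, a phosphatase gene of blood cells, stood at 0.628 and 2.41 CPM in wild type, against 5.42 and 11.5 in KPC. The groups did not overlap in any of the 3. In Ptpn6 the libraries had the order of the macrophage markers, whose part was not tested.

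Of 15 tested sensors, adaptors and kinases, 4 were higher at an unadjusted p under 0.05 by edgeR, where 4.73% of all rows were, and 0 were lower, with a median of 0.16 over the list. None passed edgeR's adjusted threshold, and DESeq2 called 3 higher (Irf8, Tlr7 and Ifi204). Irf8, a factor of myeloid cells, stood at 0.989 and 1.74 CPM in wild type, against 4.06 and 8.21 in KPC. Tlr7, the endosomal receptor for single-stranded RNA, stood at 0.0761 and 0.536 CPM in wild type, against 2.07 and 3.33 in KPC. Ifi204, a DNA-binding protein gene of the p200 family, stood at 3.33 and 4.69 CPM in wild type, against 8.31 and 10.7 in KPC. All 3 had the order of the macrophage sums, lowest in wild type 1 and highest in KPC 2, and the part of those cells was not tested. The fourth was the kinase gene Ikbke, named after its values were seen, at 9.79 and 8.85 CPM against 12.9 and 13.9 CPM.

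**Figure D4:**
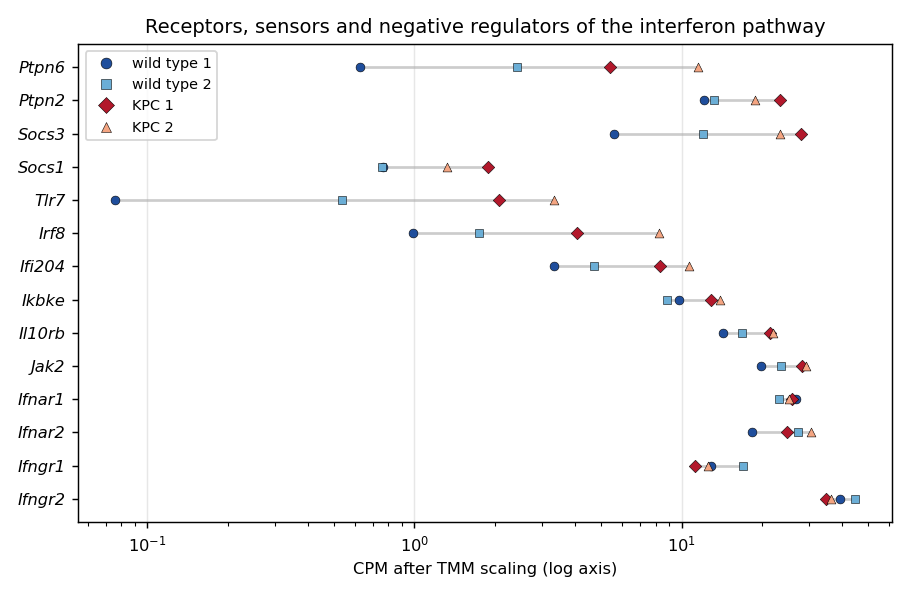
Level of 14 genes of the interferon pathway outside the 33 members in each library, as CPM after TMM scaling on a log axis: negative regulators at the top, sensors and a kinase in the middle, receptor chains and Jak2 at the bottom. Ptpn6, Tlr7 and Irf8 run from wild type 1 up to KPC 2, while Ifnar1 lies within a narrow range.

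Of 31 other tested interferon-stimulated genes, 23 had a positive log2 fold change, against 48.7% of all rows, and the median was 0.20. By edgeR 3 were higher at an unadjusted p under 0.05, where 4.73% of all rows were, 0 were lower, and 0 passed the adjusted threshold. They were Slfn5, a Schlafen gene, at 0.761 and 0.536 CPM in wild type, against 1.21 and 1.59 in KPC, the ADP-ribosyltransferase gene Parp10 at 7.55 and 7.78 against 12.0 and 10.8 CPM, and Trim30a at 2.57 and 2.10 against 3.48 and 4.88 CPM. Of 11 other tested interferon gamma GTPases, 10 had a negative log2 fold change, where 48.7% of all rows were positive. The median was -0.38, and 0 had an unadjusted p under 0.05, where 3.94% of all rows were lower. In 6 of those 11 wild type 1 was the highest library, where 31.0% of all rows had it highest. Wild type 1 also had the most endothelial marker RNA, and the part of endothelial cells was not tested. The giant GTPase gene Gvin1 stood at 74.1 and 41.2 CPM in wild type, against 27.4 and 36.3 in KPC, lower without overlap. Gbp7 was the positive one, at 0.856 and 1.03 CPM in wild type, against 1.56 and 1.52 in KPC. Tgtp1 stood at 1.39 and 1.52 CPM in wild type, against 1.05 and 0.884 in KPC. Its near copy Tgtp2 may share its reads.

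Among 16 other tested targets of interferon gamma, 2 were higher and 1 was lower at an unadjusted p under 0.05, where 4.73% and 3.94% of all rows were. Cd274, which encodes the checkpoint ligand PD-L1, stood at 0.742 and 1.34 CPM in wild type, against 3.09 and 2.70 in KPC, a log2 fold change of 1.51 ± 0.39 (SE) with an adjusted p of 0.459. Socs1, the feedback inhibitor that binds JAKs, stood at 0.761 and 0.760 CPM in wild type, against 1.89 and 1.33 in KPC. B2m, the light chain of MHC class I, stood at 158 and 155 CPM in wild type, against 110 and 112 in KPC, at -0.50 ± 0.16 (SE) and an adjusted p of 0.537. In all 3 the groups did not overlap. Macrophage, epithelial and mesothelial markers had higher sums in the libraries in which Cd274 and Socs1 were higher. Epithelial and mesothelial sums had the order of Cd274 over the libraries, and macrophage sums had KPC 2 highest. The part of these cells was not tested.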

How the data were processed

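The labels' protocols describe single-read sequencing of poly-A RNA from 4 cultured fibroblast samples. Tools listed in the submitters' processing notes are bedtools, SAMtools 0.1.18, TopHat2 2.0.3 and FastQC 0.10.1, with mm10 and GRCm38 as the build, and no step is assigned to any of them. The authors deposited for each sample a read count, the covered bases, the interval length and the covered fraction of 38921 gene intervals. That these are raw counts over whole intervals was read from the values. The deposited covered fraction and covered bases served only as a description. No strand was apparent and reads with several matches seem to be counted more than once, so overlapping genes and near copies are uncertain.

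Counts were tested with edgeR 4.0.16 in R 4.3.3 (filterByExpr with a minimum count of 10, TMM factors from 0.988 to 1.02, two-sided quasi-likelihood test, Benjamini-Hochberg adjustment over 23046 rows at 0.05). Each standard error is the size of the log2 fold change over the root of its F statistic. A symbol on several rows used the row with most counts. DESeq2 1.42.0, limma voom 3.58.1, other scalings and filters, leaving out each library (its group's lone library assumed to vary like the other group), and a block for the replicate number were alternatives; tests were checked on simulated data. Figures used matplotlib 3.10.9. The members, lists and tests were chosen with earlier results of these data known. Outside the members, the text names the 3 tested genes of smallest p in each list and the receptor chains, and for marker lists whose sums do not overlap the 2 most abundant markers. Of the genes this rule takes, 1 is not reported here.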

Additional observations from a re-analysis of the deposited data

How the results depend on the processing

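RLE, upper quartile or no composition factors and the other count filters kept the direction of each median and changed the sign of 0 members; a filter of 1 CPM in 2 libraries tested 27 of them. Upper quartile factors moved the median of all rows to -0.08 and turned the split at an unadjusted p under 0.05 from 1090 higher and 909 lower to 917 and 1087. DESeq2 called 333 rows higher and 294 lower, where edgeR called 0 and 0. At an unadjusted p under 0.05, limma voom gave 1 member higher and 2 lower. The replicate numbers share only a number (correlation of deviations 0.14 over 2 pairs), and with the replicate block 1 member was higher; the cause of these changes was not tested. With each library left out in turn, rows called higher ran from 0 to 429 and lower from 0 to 390, the upper values without wild type 2; the median of all members ran from -0.13 to 0.42, of the type I members from -0.16 to 0.45, their difference from the GTPases from -0.086 to 0.49, and members higher at an unadjusted p under 0.05 from 1 to 4. Xaf1 (1.57 to 2.12) and Irgm1 (-1.24 to -0.89) kept an unadjusted p under 0.05 in all 13 fits. Besides the DESeq2 calls, members passed the adjusted threshold only without wild type 2, where Oas1a and Xaf1 did. Over all alternatives 15 members changed sign, 7 of them without wild type 1 and 5 without wild type 2. Of 390 member values under alternatives, those passing the adjusted threshold were counted apart. Of the others, 369 moved by less than the SD between replicates and 17 moved more. With 2 libraries a group, leaving 1 out can hardly move a value by more than this SD, so the count does not measure stability. Usp18 was among the 369 without wild type 1, where its log2 fold change went from 0.12 to -0.40. Mx1, Mx2, Oas2, Cmpk2, Rsad2 and Iigp1 rest on few counts.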
